A study of Mus musculus with 6 samples.

Results

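The 52 genes described here encode structural proteins of the extracellular matrix: fibrillar collagens, components of basement membranes, collagens of other types, elastic fibre proteins, small and large proteoglycans, and adhesive and matricellular glycoproteins. They are a list of named genes of these families, and no measured value enters the rule, though the list was drawn up with earlier results of these data known. A gene was measured by every array probe set that the platform annotation assigns to that gene alone, and was represented by its brightest probe set, taken over the 6 arrays. In this way 51 of the 52 genes were found among 18193 genes, with 114 probe sets in all, and Fbn1 was not analysed here. The tissue was the oviduct of MF1 mice, taken at embryonic day 2.5 (E2.5) from females mated with wild-type males. The wild-type group (Wt1 +/+) and the group with 1 knockout allele (Wt1 ko/+) had 3 samples each, each hybridized to an array of its own. The product of Wt1 is a transcription factor with zinc fingers. The labels do not give the design of the ko allele, the age of the females or whether oviducts were pooled, and no label ties each sample to an animal of its own, so the p-values refer to variation among these 6 samples, some of which may be technical.

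The extracellular matrix is the secreted scaffold on which the layers of the oviduct wall are built. Fibrillar collagens give the stroma its tensile strength. Type IV collagen and laminins form the networks of the basement membrane, which lies under the epithelium and surrounds smooth muscle cells and vessels, and nidogens and perlecan join these networks. Elastic fibres allow recoil, proteoglycans of the decorin family control the width of collagen fibrils, and matricellular proteins such as the thrombospondins act on cells and growth factors rather than bearing load. Fibroblasts, smooth muscle cells, endothelial cells and epithelial cells all contribute matrix proteins. In a whole tissue, fewer cells of a type and less RNA per cell cannot be told apart.

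Intensities were set to a common distribution on all arrays (quantile normalization) and are given on the log2 scale unless a deposited intensity is named. The median intensity of an array lay between 151.6 and 167.8. For Wt1 itself the wild-type mean was 11.96 ± 0.26 (SD, n = 3) and the heterozygous mean 11.39 ± 0.35 (SD, n = 3), with overlap between the groups and no call (log2 difference -0.57, limma adjusted p = 0.771). The oviduct markers were bright in all arrays: Ovgp1, the oviduct-specific glycoprotein, lay between 14.26 and 14.36, and Foxj1, the regulator of motile cilia, between 11.65 and 12.20. The ratio of 3' to 5' signal of the Actb control probe sets, a sign of RNA quality, was 5.90 in wild-type replicate 3, while the rest lay from 1.67 to 2.49. The 12 measured genes of cells that a female oviduct lacks, such as Y-linked and lens genes, had means between 2.27 and 7.29, all below the median of all probe sets (7.31). Of the 51 matrix genes 48 had a mean above that median. Of the 12 genes that the tissue lacks, 5 were higher and 7 lower in heterozygous arrays. At an unadjusted limma p under 0.05 there were 3 of them, all lower: Crygb (-2.03), Eif2s3y (-1.04) and Kdm5d (-0.78). These were 25% of that list, against 6.44% of all genes, so such shares also arise in short lists at background signal.

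No matrix gene passed the threshold of an adjusted p of 0.05 (limma, Benjamini-Hochberg over all genes; smallest adjusted p = 0.439), where 0.0165% of all genes did. The heterozygous mean was higher for 37 of the 51 and lower for 14, against 45% higher among all genes. The median log2 difference was 0.13, against -0.03 over all genes tested. At an unadjusted limma p under 0.05 there were 6 matrix genes on the higher side, where 2.67% of all genes were, and 1 on the lower side, where 3.77% were. Together these 7 were 13.7% of the matrix genes, against 6.44% of all genes in either direction. The 6 were Thbs2, Vcan, Postn, Lama4, Col4a2 and Col4a6, and the 1 was Col18a1. The genotypes did not overlap in 8 genes on the higher side (5% of all genes) and in 1 on the lower side (6.77% of all genes). Vcan and Nid2 count among the 48 only through their heterozygous arrays, since their wild-type means were 7.29 and 7.21. Among all genes above that median 0 passed the threshold of an adjusted p of 0.05. Of these genes 5.31% had an unadjusted p under 0.05 in either direction (2.22% higher and 3.09% lower). Their genotypes did not overlap in 5.41% on the higher and 7.13% on the lower side. The count of 6 was 2 without wild-type replicate 2 and 2 without heterozygous replicate 2, and the remaining higher genes in both cases were Thbs2 and Vcan. It was also 2, the same pair, with the Actb 3' to 5' ratio as a covariate. Col18a1 was at an unadjusted p under 0.05 in each of these fits. In the fit without wild-type replicate 1, where 10.5% of all genes were at that p, Col15a1 joined it on the lower side, which made 2. Without wild-type replicate 3, the array with the high 3' to 5' ratio, Postn and Col4a6 were not at that p, where 5.5% of all genes were.

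**Figure D1:**
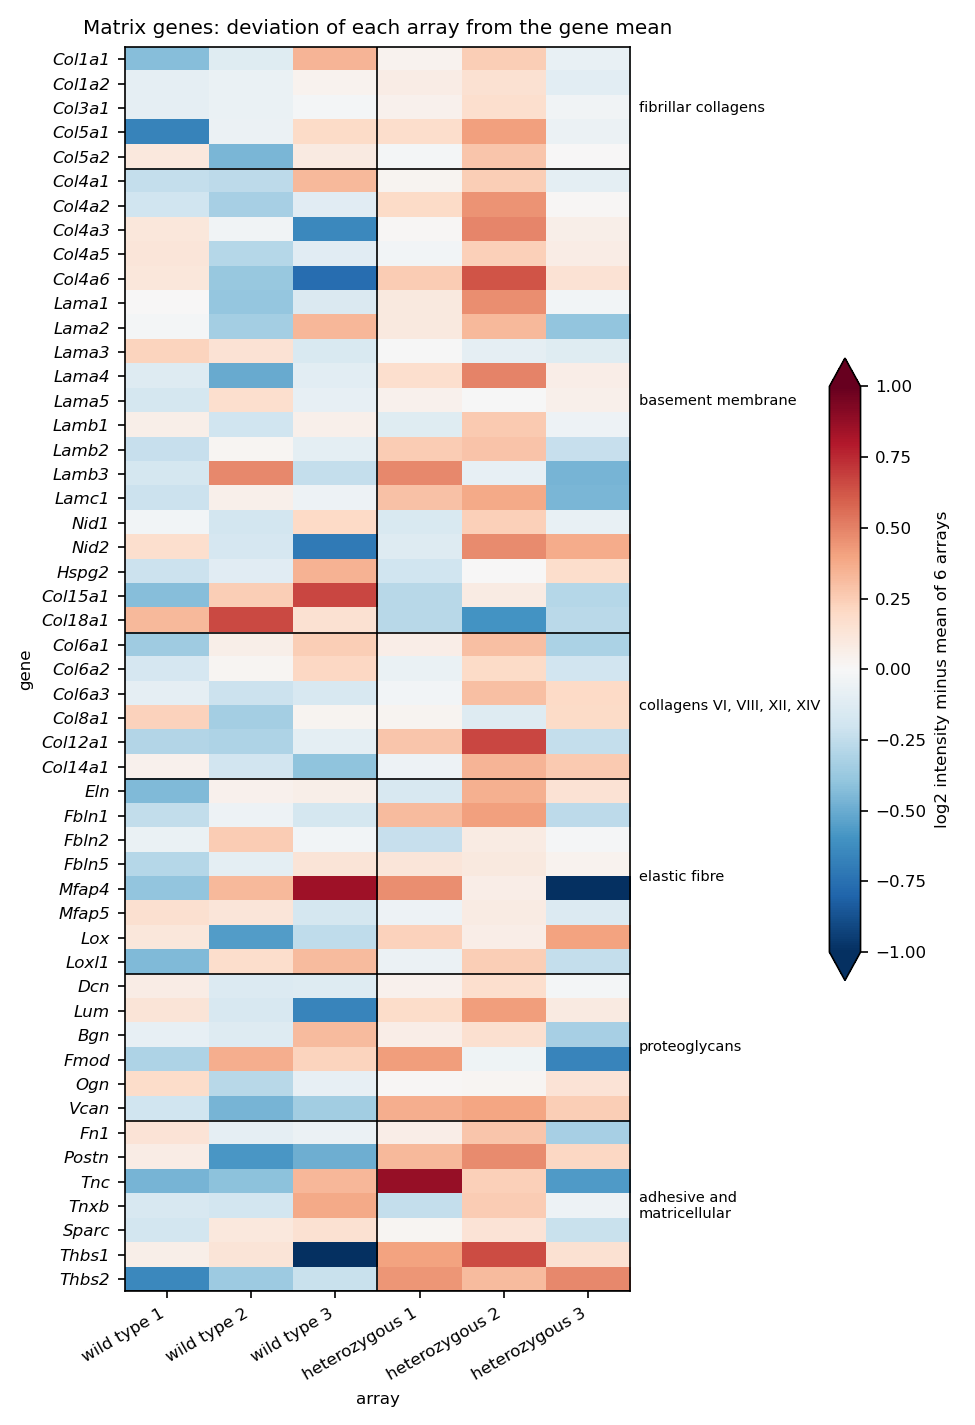
Deviation of each array from the mean of the 6 arrays for each of the 51 matrix genes, on the log2 scale (colour, red above and blue below the mean; values beyond 1 have the end colours), with genes in rows by role and arrays in columns. Heterozygous replicate 2 had the highest value of all arrays in 27 of the 51 genes.

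The arrays of a genotype did not move as one. Heterozygous replicate 2 was the highest array in 27 of the 51 matrix genes, 52.9%, against 12.005% of all genes. Heterozygous replicates 1 and 3 were the highest in 2 genes each, 3.92%, against 15.3% and 13.5% of all genes. Wild-type replicate 3 was the highest in 12, 23.5%, below its share of 29.2% of all genes. The lowest array was wild-type replicate 2 in 16 matrix genes, 31.4% against 13.4% of all genes. It was heterozygous replicate 3 in 12 and wild-type replicate 1 in 12, 23.5% each, against 16.5% and 20.9% of all genes. The mean deviation over the 51 genes was -0.11, -0.10 and -0.04 for the wild-type arrays in the order of their numbers, and 0.09, 0.24 and -0.08 for the heterozygous ones. The genotypes thus overlapped in the summed level of the matrix genes, with heterozygous replicate 3 among the wild-type arrays. With this array left out 43 of the 51 genes were higher, and without heterozygous replicate 2 the number was 31.

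**Figure D2:**
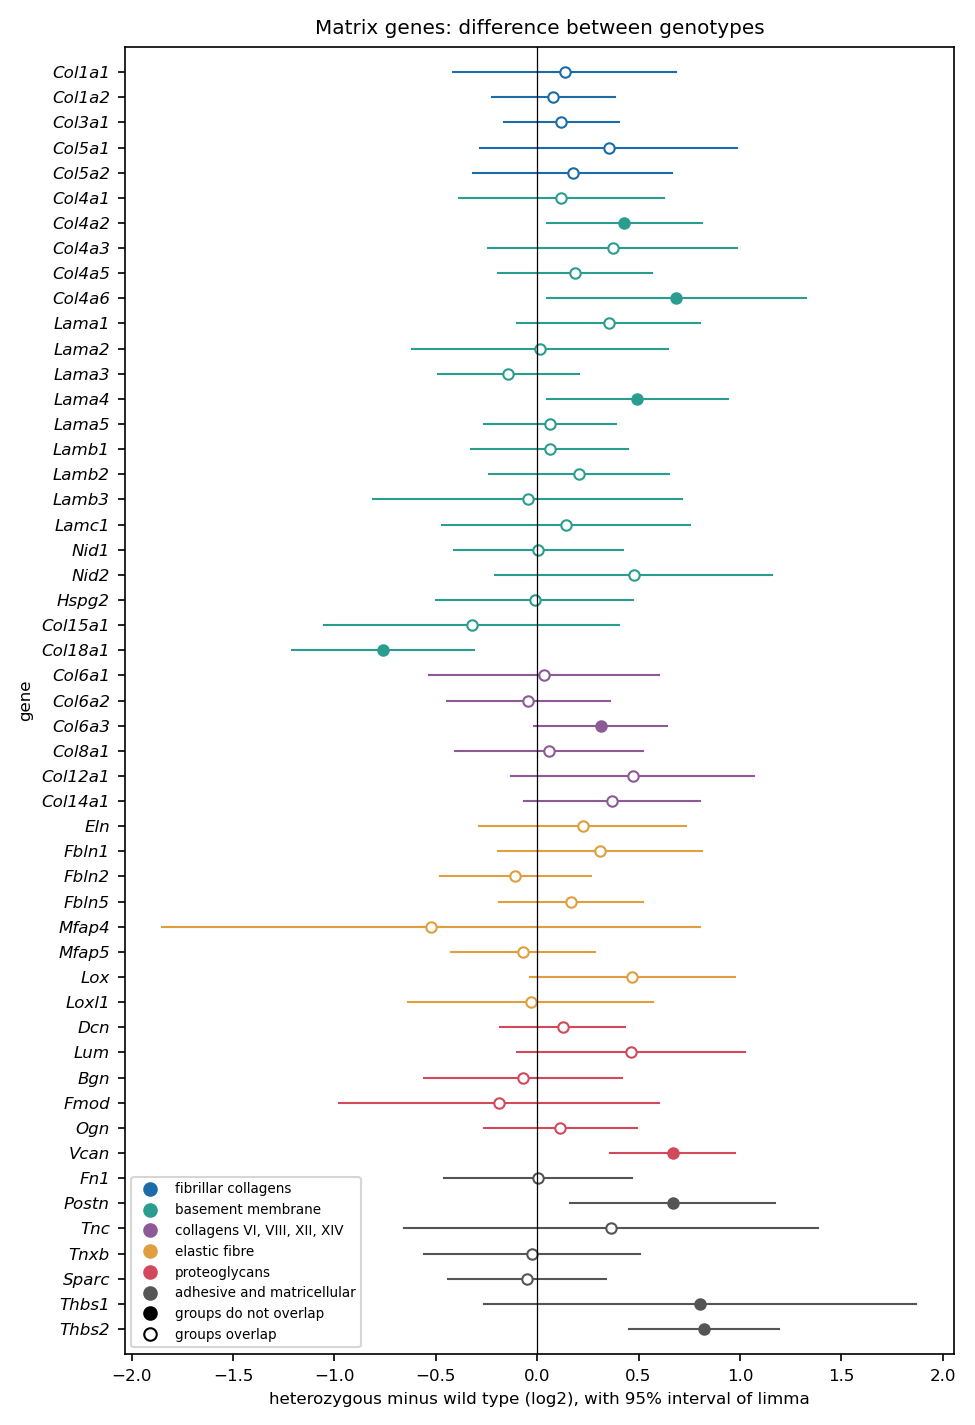
Difference between genotypes for each of the 51 matrix genes (heterozygous minus wild type, log2, with the 95% interval of limma), coloured by role, with filled circles where the genotypes do not overlap. The filled circles are 8 genes on the higher side and Col18a1, at -0.76, on the lower side.

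Promoter sequences are shown for genes whose genotypes lay apart: Thbs2 and Vcan, the 2 of smallest p on the higher side, Postn, and Col18a1 on the lower side. Each is the run of 250 bases before a transcription start in RefSeq (GRCm38.p6), written 5' to 3' on the strand of the gene. RefSeq windows were at hand for 33 of the 52 genes. Capitals mark TATAAA (the TATA box) and CCAAT, on either strand. The windows are Thbs2 at chr17:14694263-14694512 (minus strand), Vcan at chr13:89742513-89742762 (minus strand), the downstream of the Postn starts at chr3:54360857-54361106 (plus strand), and the upstream and downstream Col18a1 starts at chr10:77166531-77166780 and chr10:77113706-77113955 (minus strand).
Thbs2: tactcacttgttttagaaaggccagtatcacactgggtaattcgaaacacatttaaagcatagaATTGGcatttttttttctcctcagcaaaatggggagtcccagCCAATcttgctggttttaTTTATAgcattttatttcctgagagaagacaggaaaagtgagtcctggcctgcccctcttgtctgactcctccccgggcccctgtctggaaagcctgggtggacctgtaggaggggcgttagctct
Vcan: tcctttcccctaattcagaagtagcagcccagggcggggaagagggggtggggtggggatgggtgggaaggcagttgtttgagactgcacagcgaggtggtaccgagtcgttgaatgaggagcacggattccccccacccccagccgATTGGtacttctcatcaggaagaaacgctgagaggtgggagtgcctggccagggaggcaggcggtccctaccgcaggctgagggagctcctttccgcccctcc
Postn: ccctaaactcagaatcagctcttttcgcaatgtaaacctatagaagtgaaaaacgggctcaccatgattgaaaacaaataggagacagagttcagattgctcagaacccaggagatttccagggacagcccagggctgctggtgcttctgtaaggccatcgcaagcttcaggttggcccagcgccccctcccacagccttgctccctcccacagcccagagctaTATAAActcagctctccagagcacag
Col18a1 upstream start: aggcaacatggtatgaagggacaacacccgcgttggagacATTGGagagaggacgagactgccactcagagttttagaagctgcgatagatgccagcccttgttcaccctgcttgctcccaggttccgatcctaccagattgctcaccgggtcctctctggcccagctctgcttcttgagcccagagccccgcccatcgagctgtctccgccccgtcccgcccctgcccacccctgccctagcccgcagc
Col18a1 downstream start: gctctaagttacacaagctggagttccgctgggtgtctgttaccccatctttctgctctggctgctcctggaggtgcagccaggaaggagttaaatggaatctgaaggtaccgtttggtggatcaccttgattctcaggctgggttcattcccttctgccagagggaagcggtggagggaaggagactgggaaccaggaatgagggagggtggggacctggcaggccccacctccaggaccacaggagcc

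The Postn window had TATAAA 26 bases before the start, and the Thbs2 window had it on the opposite strand, 126 bases before the start. CCAAT was found in both orientations in the Thbs2 window and on the opposite strand in the Vcan and the upstream Col18a1 windows. Neither motif was found in the downstream Col18a1 window, nor in that of the upstream Postn start (chr3:54359017-54359266), which is not printed. Of all 32851 windows of the same length 12.4% held TATAAA and 33.8% held CCAAT, on either strand. The letters GCGNGGGNG, a pattern of the kind that zinc finger proteins of the EGR and WT1 type bind, overlap neither of these motifs and were in none of the 5 windows shown. They were in 12 of the 40 windows of matrix genes, those of 11 genes, and in 10.5% of all windows. Among these 11 genes were Col1a2, Col4a1, Col5a1, Lamb1, Nid1 and Tnc, and none of them was at an unadjusted p under 0.05. Since 6.44% of all genes were at that p, 11 genes are too few for this count to set them apart. The start of Col4a1 also lay 21 bases from that of Col4a2, which was at that p, and bases after a start were not searched. Lama4, which was at that p, had no window.

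Among fibrillar collagens, which form the banded fibrils of the stroma, all 5 genes were slightly higher in heterozygous oviducts and all 5 overlapped between the genotypes (0 past the threshold, median log2 difference 0.14). The type III chain Col3a1 had deposited intensities of 10009, 11195 and 12890 in wild-type and 11963, 12875 and 10669 in heterozygous replicates 1, 2 and 3. The arrays of both genotypes were interleaved, and the log2 difference was 0.12 with a 95% interval of -0.16 to 0.40. For Col1a2, the second chain of type I collagen, the interval was -0.22 to 0.39, so a difference as large as that of Thbs2 lay outside it. Col5a1, a chain of the type V collagen that starts fibrils, had the largest difference of the group, 0.35, with a wide interval of -0.28 to 0.99. Its brightest probe set was lowest in wild-type replicate 1, at an intensity of 573.8, and 864.8 to 1196 in the heterozygous arrays. The difference of Col5a1 was 0.11 without wild-type replicate 1, and its other probe sets gave 0.02 and 1.08. The probe set at 1.08 was dim (mean under 7.31). Its wild-type intensities were 143.8, 124.5 and 41.9 in replicates 1, 2 and 3, the last from the array with the high 3' to 5' ratio. The type V chain Col5a2 had a brightest probe set with overlap (0.18) and another without (0.57, limma unadjusted p = 0.030).

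In the basement membrane group 14 of 19 genes were higher and 5 lower, with a median of 0.12 and 0 past the threshold. Laminins are trimers of an alpha, a beta and a gamma chain. Lama4, the alpha chain of the laminins of vessels and muscle, had intensities of 881.1, 675.6 and 872.6 in wild-type and 1086, 1344 and 997.5 in heterozygous replicates 1, 2 and 3. Every heterozygous array was above every wild-type array, with a log2 difference of 0.49 (standard error 0.18, limma adjusted p = 0.738). Lama1, an alpha chain of embryonic basement membranes, was dim (mean under 7.31) and overlapped (0.35). Lama2, the alpha chain of muscle basement membranes, stood at 0.01, and Lama3 and Lama5, alpha chains of epithelial laminins, at -0.14 and 0.06. The chains that pair with them, Lamb1, Lamb2, Lamb3 and Lamc1, lay between -0.05 and 0.21, all with overlap. Among the laminin chains, Lama4 was thus the 1 gene without overlap at its brightest probe set. The second Lama4 probe set was dim (mean under 7.31) and overlapped, at 0.68. Its highest array was wild-type replicate 1, at an intensity of 138.7, against 44.2, 118.1 and 106.7 in heterozygous replicates 1, 2 and 3.

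Type IV collagen chains are encoded in head-to-head gene pairs. In RefSeq (GRCm38.p6) the starts of Col4a1 and Col4a2 on chromosome 8 lay 21 bases apart, with the first bases of both transcripts overlapping, and those of Col4a6 and Col4a5 on chromosome X 1343 bases apart. Col4a2 had intensities of 1036, 939.6 and 1075 in wild-type and 1358, 1588 and 1184 in heterozygous replicates 1, 2 and 3, without overlap (log2 difference 0.43, standard error 0.16, limma adjusted p = 0.731). Its partner Col4a1 overlapped between the genotypes, at 0.12 with an interval of -0.39 to 0.63, and its highest array was wild-type replicate 3 with an intensity of 2946. The second Col4a1 probe set stood at 0.52, also with overlap (limma unadjusted p = 0.052). Whether the partners differ from each other was not tested. Col4a6 had intensities of 638.9, 452.5 and 334.8 in wild-type and 692.7, 906.1 and 655.9 in heterozygous replicates 1, 2 and 3. Its groups did not overlap, though wild-type replicate 1 was close to heterozygous replicate 3 (log2 difference 0.69, standard error 0.26, limma adjusted p = 0.748). The lowest Col4a6 array was wild-type replicate 3, the array with the high 3' to 5' ratio, whose part in the difference was not tested. The second Col4a6 probe set also lacked overlap, at 0.41. Col4a5, the partner, had a difference of 0.19 with overlap, and Col4a3, a chain known from the basement membrane of the kidney filter, 0.37 with overlap at its brightest probe set and 0.41 without overlap at the other.

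Col18a1 encodes type XVIII collagen, a proteoglycan collagen of the basement membrane zone whose end fragment is endostatin. It was the 1 matrix gene lower without overlap at its brightest probe set. Its intensities were 1498, 1861 and 1297 in wild-type and 977.6, 785.9 and 979.8 in heterozygous replicates 1, 2 and 3. All heterozygous arrays lay below all wild-type arrays, 1.69-fold lower on average (log2 difference -0.76, standard error 0.18, limma unadjusted p = 0.00610, adjusted p = 0.532). Both Col18a1 probe sets gave this pattern, the other one at -0.84. Heterozygous replicate 2, the highest array for most matrix genes, was the lowest for this one. Col15a1, the related type XV collagen, had a difference of -0.32, but its lowest array was wild-type replicate 1, and the interval ran from -1.05 to 0.41. The linkers overlapped between the genotypes at their brightest probe sets: Nid1 at 0.01, Nid2 at 0.48 and Hspg2, perlecan, at -0.01. The other Nid1 probe sets were dim (mean under 7.31), at 1.78 with overlap and at -0.73 without overlap. The wild-type mean of Nid2, 7.21, lay below the median of all probe sets.

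**Figure D3:**
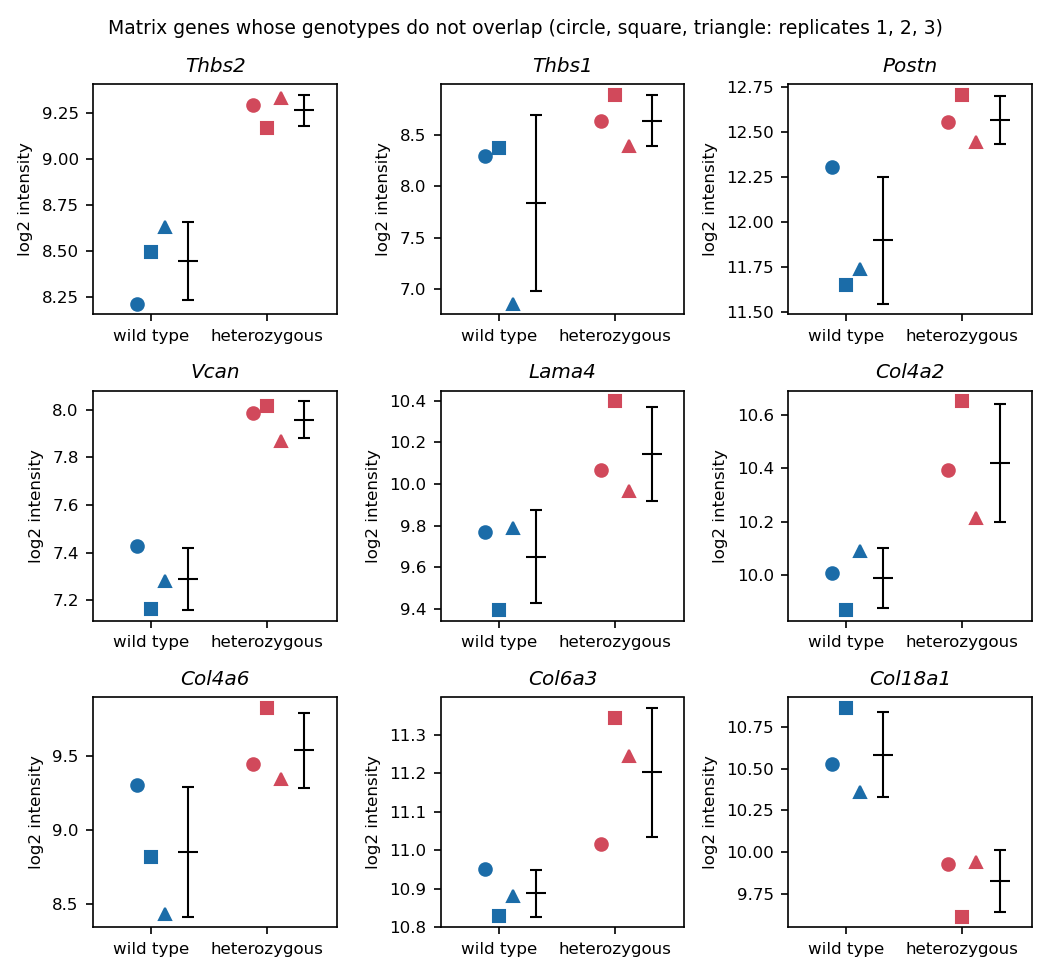
Log2 intensity on each array for the 9 matrix genes whose genotypes do not overlap, with wild-type arrays in blue, heterozygous arrays in red and the mean and SD (n = 3) beside them; the vertical axes differ between panels. Thbs2 and Vcan have heterozygous SDs of 0.08 each, and Thbs1 has 1 low wild-type array.

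Of the collagens of other types, 5 of 6 genes were higher and 1 lower (median 0.19, 0 past the threshold). Type VI collagen forms beaded filaments around cells from chains of Col6a1, Col6a2 and Col6a3. Col6a3 had intensities of 2002, 1819 and 1881 in wild-type and 2094, 2566 and 2396 in heterozygous replicates 1, 2 and 3. The groups did not overlap, with heterozygous replicate 1 close to wild-type replicate 1, and the log2 difference was 0.31 (limma unadjusted p = 0.0571, adjusted p = 0.798). Both of its chain partners overlapped, Col6a1 at 0.03 and Col6a2 at -0.04. Col12a1 and Col14a1, fibril-associated collagens, stood at 0.47 and 0.37 with overlap, and the Col12a1 intensity of 1591 in heterozygous replicate 2 exceeded the rest, which lay from 822.0 to 1238. Col8a1, a short-chain collagen of vessels, was dim (mean under 7.31) and stood at 0.06.

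Of the 8 measured elastic fibre genes 4 were higher and 4 lower, with a median of 0.07 and no gene without overlap. Lox, the lysyl oxidase that crosslinks elastin and collagen, had intensities of 904.6, 564.0 and 680.6 in wild-type and 976.8, 870.9 and 1086 in heterozygous replicates 1, 2 and 3. Heterozygous replicate 2 lay below wild-type replicate 1, and the log2 difference was 0.47 (limma unadjusted p = 0.0633, adjusted p = 0.805). Its relative Loxl1, which acts on elastic fibres, stood at -0.03. Eln, elastin itself, stood at 0.22 with an interval of -0.29 to 0.74. Mfap4, a microfibril-associated glycoprotein, had the largest standard error of the 51 genes, 0.54, with intensities of 911.7, 1482 and 2144 in wild-type and 1657, 1237 and 484.6 in heterozygous replicates 1, 2 and 3. Its log2 difference of -0.52 rested on heterozygous replicate 3, and it was 0.00 without this array. The fibulins Fbln1, Fbln2 and Fbln5, which bind elastin and basement membranes, lay between -0.11 and 0.31.

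Among 6 proteoglycans 4 were higher and 2 lower (median 0.12, 0 past the threshold). Vcan encodes versican, a large hyaluronan-binding proteoglycan of loose connective tissue. Its intensities were 171.0, 142.8 and 153.0 in wild-type and 245.8, 266.4 and 243.8 in heterozygous replicates 1, 2 and 3. Each heterozygous array was above each wild-type array, but the wild-type mean of 7.29 lay below the median of all probe sets, at the upper end of the genes that the tissue lacks, so no fold is given (log2 difference 0.67, standard error 0.13, limma unadjusted p = 0.00188, adjusted p = 0.456). Vcan had 8 probe sets, 6 higher and 2 lower, and the other 7 were all dimmer than the median probe set and all overlapped between the genotypes. Averaged over its 8 probe sets, Vcan stood at 0.06. The small leucine-rich proteoglycans showed smaller differences with overlap: Dcn, decorin, 0.13, Ogn, osteoglycin, 0.11, Bgn, biglycan, -0.07 and Fmod, fibromodulin, -0.19. Lum, lumican, a neighbour of Dcn on the chromosome, stood at 0.46, with wild-type replicate 3 lowest at an intensity of 2406 and the other arrays between 3354 and 5009. The 6 Fmod probe sets were divided, with 3 higher and 3 lower.

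The adhesive and matricellular glycoproteins had a median of 0.36, with 5 of 7 genes higher, 3 of them without overlap, and 0 past the threshold. This median, the value of Tnc, was 0.09 without heterozygous replicate 1, 0.22 without wild-type replicate 1 and 0.74 without heterozygous replicate 3. It was above the medians of the other 5 groups with all arrays, but below that of the other collagens without heterozygous replicate 1 (0.23) or wild-type replicate 1 (0.27). Thbs2, thrombospondin 2, a secreted inhibitor of vessel growth that also affects collagen fibril assembly, had intensities of 299.4, 359.2 and 383.3 in wild-type and 621.9, 587.1 and 651.8 in heterozygous replicates 1, 2 and 3. The groups were far apart relative to their spread, 1.77-fold higher in heterozygous oviducts (log2 difference 0.82, standard error 0.15), and this was the smallest p of all matrix genes (limma unadjusted p = 0.00159, adjusted p = 0.439). The adjusted p of Thbs2 ranged from 0.147 to 0.839 over the alternative analyses and did not pass in any. A second Thbs2 probe set also lacked overlap (0.52), and the third gave 0.33 with overlap. Thbs1, thrombospondin 1, a regulator of TGF-beta activity, lacked overlap too, at 0.80. Its wild-type intensities of 317.8, 330.2 and 114.9 in replicates 1, 2 and 3 included 1 low array, against 391.0, 484.9 and 345.4 in the heterozygous ones, and limma gave an unadjusted p of 0.115. The low value came from wild-type replicate 3, the array with the high 3' to 5' ratio, whose part in the difference was not tested. The second Thbs1 probe set stood at 0.43 with overlap, and wild-type replicate 3 was its lowest array too.

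Postn encodes periostin, a matricellular protein of fibroblasts that helps collagen crosslinking. Its intensities were 4947, 3206 and 3511 in wild-type and 6163, 6563 and 5359 in heterozygous replicates 1, 2 and 3. The groups did not overlap, with wild-type replicate 1 nearest to the heterozygous arrays (1.59-fold, log2 difference 0.67, standard error 0.21, limma unadjusted p = 0.0179, adjusted p = 0.660). Fn1, fibronectin, and Sparc, a collagen-binding matricellular protein, overlapped and stood at 0.00 and -0.05, with intervals of -0.46 to 0.47 and -0.44 to 0.34. Tnxb, tenascin X, stood at -0.02. Tnc, tenascin C, was dim (mean under 7.31) and had intensities of 179.8, 121.9 and 73.7 in heterozygous replicates 1, 2 and 3, of which the first alone lay above the wild-type range of 70.2 to 127.3.

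**Figure D4:**
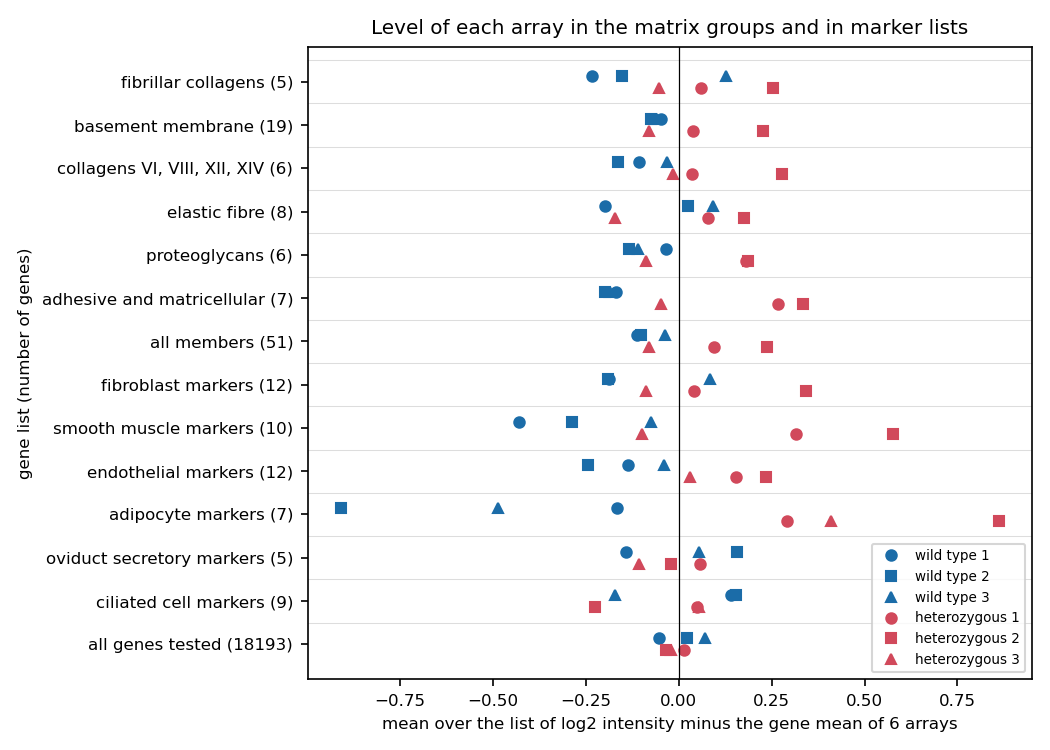
Level of each array in the matrix gene groups, in marker lists and in all genes, as the mean over the list of each gene's log2 intensity minus its mean over the 6 arrays (blue, wild type; red, heterozygous; circle, square and triangle for replicates 1, 2 and 3). Heterozygous replicate 2 is the rightmost point in the matrix groups and in the fibroblast, smooth muscle and endothelial lists.

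Markers of cell types that make or surround the matrix were measured on the same arrays. Of 12 fibroblast markers that are not matrix genes of this set, 9 were higher (median 0.19), and their mean deviation was -0.19, -0.19 and 0.08 in wild-type and 0.04, 0.34 and -0.09 in heterozygous replicates 1, 2 and 3. Among them the mesenchymal transcription factor Tcf21 stood at 0.68 without overlap (limma adjusted p = 0.387). All 10 smooth muscle markers were higher (median 0.56), with mean deviations of -0.43, -0.29 and -0.07 in wild-type and 0.32, 0.58 and -0.10 in heterozygous replicates 1, 2 and 3, and Cnn1, calponin, at 0.91. Of 12 endothelial markers 11 were higher (median 0.24, Pecam1 at 0.83), with mean deviations of -0.24 to -0.04 in wild-type and 0.03 to 0.23 in heterozygous arrays. Of 7 adipocyte markers, 3 of them dimmer than the median probe set, 6 were higher (median 1.26, Car3 at 2.22), with mean deviations of -0.91 to -0.17 and 0.29 to 0.86. Heterozygous replicate 2 was the highest array in each of these 4 lists, as it was in 27 matrix genes, and the part of these cell types in the matrix differences was not tested. The Schwann cell list (3 of 5 genes measured, median -0.02) and the mesothelial list (4 of 7 higher, median 0.08, Lrrn4 at 0.84) overlapped between the genotypes in their mean deviation. Of the epithelial lists, 3 of 5 secretory markers were higher (median 0.01) and 8 of 9 ciliated cell markers lower (median -0.14, Foxj1 at -0.31). Leukocyte markers had 9 of 13 higher and 4 lower (median 0.16), with log2 differences from -0.53 to the 4.24 of S100a8. Their mean deviations were -0.77 to 0.04 in wild-type and 0.18 to 0.72 in heterozygous arrays. Uterine gland markers had 4 of 6 higher and 2 lower (median 0.43), with log2 differences from -1.22 to the 2.50 of Cxcl15. Their mean deviations were -0.43 to -0.22 in wild-type and -0.01 to 0.54 in heterozygous arrays. No marker passed the threshold in the main fit, where the smallest limma adjusted p of the uterine gland list was 0.062. The limma adjusted p of Cxcl15 ranged from 0.0040 to 0.609 over the alternative analyses, so it passed in part of them. The part of leukocytes or uterine tissue in the matrix values was not tested.

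Arrays were also compared within 2 classes of RNA quality, the 3 with the lower Actb 3' to 5' ratio (wild-type replicate 1 and heterozygous replicates 2 and 3) and the 3 with the higher. Of the 51 matrix genes, 28 were higher in heterozygous arrays in both classes, 5 were lower in both and 18 differed in sign. The log2 difference in the lower and higher class was 1.04 and 0.73 for Thbs2, 0.52 and 0.77 for Vcan, 0.27 and 0.86 for Postn, and -0.76 and -0.68 for Col18a1. It was 0.42 and 0.42 for Col4a2, 0.41 and 0.48 for Lama4 and 0.28 and 0.82 for Col4a6. In each class 1 genotype had a single array. The genotypes did not overlap in any of these genes, so the same direction in both classes was bound to follow. Their dependence on RNA quality was thus not tested by this comparison. The median over the adhesive and matricellular group was 0.27 and 0.73, and that over the elastic fibre group 0.22 and -0.07.

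**Figure D5:**
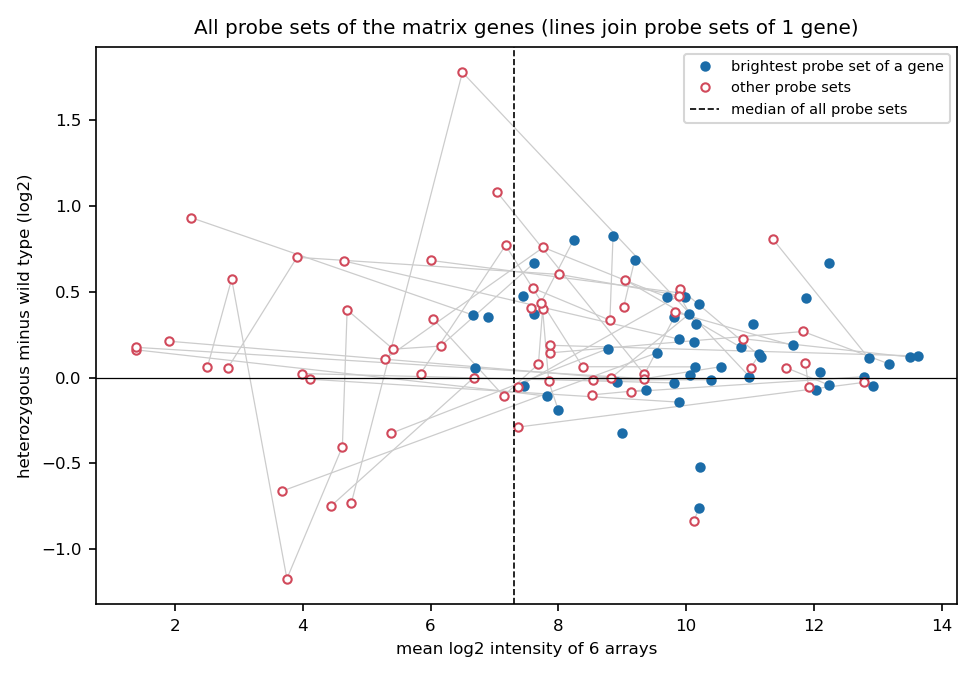
Difference between genotypes (heterozygous minus wild type, log2) against the mean log2 intensity for all 114 probe sets of the matrix genes, with lines joining probe sets of 1 gene and a dashed line at the median of all probe sets (7.31). The brightest probe sets (filled) lie between -0.76 and 0.82 and the others (open) between -1.17 and 1.78, and 32 probe sets lie below the median.

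Counting every probe set, 81 of 114 were higher and 33 lower, with a median of 0.13, and 0 passed the threshold in the fit over all 45037 probe sets (smallest adjusted p = 0.651), where 0.00666% of all probe sets did. At an unadjusted limma p under 0.05 there were 8 higher and 2 lower, against 2.25% and 2.93% of all probe sets, 5.18% in all. The genotypes did not overlap in 14 on the higher side, where 4.67% of all probe sets did, and in 3 on the lower side, where 5.87% did. Of the 38 genes with several probe sets 24 had all of them on one side and 14 on both sides. For 3 of the genes without overlap at the brightest probe set, Thbs2, Col4a6 and Col18a1, a second probe set lacked overlap in the same direction. A bright probe set of Col1a2, not the brightest, also lacked overlap, at 0.27.

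Genes that build, process or bind the matrix were examined as lists outside the 52. Of 24 measured further collagens 14 were higher and 10 lower (median 0.09), and 16 of them were dimmer than the median probe set. Col11a1, a minor fibrillar collagen, was the one with the smallest p there, with a wild-type mean of 5.96 ± 0.39 (SD, n = 3) and a heterozygous mean of 7.004 ± 0.24 (SD, n = 3), both below that median (log2 difference 1.05, limma adjusted p = 0.503). Col24a1, also a fibrillar collagen and also below that median, stood at 0.43. The 23 genes of collagen processing and crosslinking were divided, with 11 higher and 12 lower (median -0.01). Among these P3h1, a prolyl 3-hydroxylase, was lower without overlap (-0.71), while Pcolce2, an enhancer of procollagen processing, and P4ha3, a prolyl 4-hydroxylase chain, both dim, were higher without overlap (1.08 and 0.67). The prolyl hydroxylase genes P4ha1 (-0.23), P4ha2 (-0.36) and P3h2 (-0.24) were also lower without overlap. This made 4 lower and 2 higher of the 23 genes, where 6.77% of all genes were lower and 5% higher without overlap. P3h3 (0.04) and P4hb (-0.01) overlapped between the genotypes.

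Of 26 matrix receptors 12 were higher and 14 lower, with a median of -0.05. Itga1, an alpha chain of a collagen-binding integrin, was dim (mean under 7.31) and stood at 0.62 without overlap, and Itgb8, the beta chain of an integrin that activates TGF-beta, at -0.63 without overlap. Of 39 other matrix glycoproteins 26 were higher (median 0.12). Ccn2, connective tissue growth factor, was at 10.15, 10.08 and 10.20 in wild-type and 11.36, 10.76 and 11.05 in heterozygous replicates 1, 2 and 3, apart in every array, with a log2 difference of 0.91 (standard error 0.18, limma adjusted p = 0.485). Matn4, a matrilin, stood at 0.59 and was dim, and Ltbp2, a protein of elastic microfibrils, at -0.78, also without overlap. In these 4 lists limma put 0 genes past the threshold in either direction. At an unadjusted limma p under 0.05 there were 2 higher and 0 lower further collagens, 2 higher and 1 lower processing genes, 1 higher and 1 lower receptors, and 3 higher and 1 lower glycoproteins. These are 8.33%, 13.0%, 7.69% and 10.3% of the lists, against 6.44% of all genes.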

How the data were processed

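The values deposited by the authors are linear intensities, 1 for each of 45101 probe sets in each sample; per the labels' protocols, 1 µg of total RNA was labelled as cRNA for a single-colour array. The summarising program and genome build are not given in the sources used here. The 2% trimmed mean was 500.002 on all 6 arrays, so the values themselves show that the authors had scaled them. Detection calls were not used, and the number of arrays limits the precision. After 64 control probe sets had been left out, values were floored at 1 and taken to log2, and arrays were quantile normalized because their medians differed by 0.147. Of 45037 probe sets 34945 had 1 gene symbol, 932 several and 9160 none; 34741 matched RefSeq by Entrez identifier. Groups and replicate numbers came from the titles.

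Differences are heterozygous minus wild type from limma 3.58.1 (R 4.3.3; lmFit, eBayes, two-sided, Benjamini-Hochberg), fitted over all genes and over all probe sets; errors are SDs or limma standard errors. An exact permutation test of 3 against 3 arrays cannot give a p below 0.1. The members, lists, tests and alternatives were chosen with earlier results of these data known. The naming rule took Wt1; per role group the members at an unadjusted p under 0.05, or the smallest p in a direction, and the brightest; members below the median of all probe sets or with opposed probe sets; and up to 3 genes per other list. Thbs1, chain partners, further members, P4ha1, P4ha2 and P3h2 were named after their values were seen. Same-numbered samples did not deviate together (correlations -0.10, -0.03 and -0.08), so the replicate number was not used as a block. The scripts were tested on simulated data.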

Additional observations from a re-analysis of the deposited data

How the results depend on the processing

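In all 16 alternative analyses 0 matrix genes passed the threshold, and the heterozygous mean was higher for 31 to 43 of them. Thbs2 and Col18a1 were at an unadjusted limma p under 0.05 in each; Vcan was so in all but the mean of probe sets. Against 6 on the higher side there were 12 with array weights (where 14% of all genes were at that p in either direction) and 10 with a trended and robust prior (6.89%). There were 3 with the 3' to 5' ratio classes as a block, chosen after seeing the data (6.44%), and 2 with the Actb ratio as covariate (6.12%). With the replicate block there were 4 (5.36%). The numbers of that fit do not pair the samples: no pair deviated together, and 0 of 6 samples correlated best with its own number. Col4a2 and Lama4 were not among the 4, and the block changed no other call on the matrix genes. Leaving out each sample in turn gave 2 to 9 higher and 1 to 2 lower, where 4.66% to 10.5% of all genes were at that p.

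Medians moved as follows. The adhesive and matricellular median (0.36) was 0.53 with array weights, 0.56 with the mean of probe sets and 0.56 with the ratio classes, and 0.089 to 0.74 with a sample left out. The basement membrane median was 0.23 with the mean of probe sets. That of the other collagens was 0.31 after a filter on dim genes and 0.058 without cross-hybridizing probe sets, both of which test fewer genes. The matrix receptor median was 0.052 with the covariate, and the collagen processing median ranged from -0.12 to 0.050 with a sample left out. Genes near 0 turned sign: Col6a2 (0.052 with the covariate, 0.0071 with the mean of probe sets), Fmod (0.013 and 0.084, and 0.040 with ratio classes), Sparc (0.038 with the covariate, 0.012 with ratio classes) and Col8a1 (-0.23 with the mean of probe sets, -0.00866 with ratio classes). With a sample left out the ranges were -0.15 to 0.050 for Col6a2, -0.10 to 0.19 for Col8a1, -0.88 to 0.0049 for Mfap4, -0.44 to 0.095 for Fmod and -0.16 to 0.053 for Sparc. The cause was not tested.

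Over all genes, 3 passed on the lower side and 0 on the higher. The lower count was 0 with the dim filter, the trended prior, the replicate block, the covariate, the ratio classes, no cross-hybridizing probe sets and each sample left out, and 1 with log2 of the intensity plus 16. The higher count was 1 with the dim filter, the trended prior, the plus 16 scale and the mean of probe sets, and 3 with array weights. Over probe sets, 1 was higher and 2 lower. The higher count was 0 with the deposited scaling, the replicate block, the plus 16 scale, the covariate and the ratio classes, 5 with array weights, and 0 to 1 with a sample left out. The lower count was 1 with the dim filter, the trended prior and the plus 16 scale, 9 with array weights, and 0 with the replicate block, the covariate, the ratio classes and each sample left out. Signal limits the 32 matrix probe sets dimmer than the median probe set, whose standard errors reach 1.26.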
